A study of Sus scrofa domesticus with 36 samples.

Results

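GRB10, IGFBP6, STAT5A and AKT2 are 4 genes of growth hormone, insulin-like growth factor (IGF) and insulin signalling. They were chosen by symbol, and each matched 1 of the 25322 Ensembl pig genes in the count table, where all 4 were among the 12542 genes abundant enough to test. RNA was sequenced from subcutaneous adipose tissue (backfat) and from longissimus dorsi muscle of the same 18 pigs of the cross Danbred 600 × Newsham NC32, which gave 18 adipose and 18 muscle libraries. The cross is that of the growth protocol, since the number after NC in the breed labels rises from sample to sample. All pigs came from 1 commercial farm and were sampled 3 weeks after weaning per the labels, where age is listed as 16 to 17 days and stage as weaning; no treatment is named. Pigs are called by the labels' sample numbers, such as Sample_77. They came in equal numbers from 2 growth classes, one of low and one of higher gain, but the class of a pig is not in the labels used here, so growth was not compared. The questions were how each gene's level differed between the tissues, how it varied between pigs, and which genes varied with it.

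Growth hormone binds its receptor, GHR, and activates the kinase JAK2, which phosphorylates STAT5A and STAT5B; these then enter the nucleus and switch on target genes, among them IGF1. Insulin and the IGFs act through receptor tyrosine kinases that recruit adaptors such as IRS1 and pass the signal to PI3K and the AKT kinases. In muscle and fat this branch drives glucose uptake, glycogen and lipid storage and, through mTOR, protein synthesis. IGF binding proteins hold IGFs outside the cell and set how much reaches the receptor.

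Libraries held 2990471 to 5372941 counts in genes in adipose and 4716132 to 6216093 in muscle. The trimmed-mean factors, which correct for differences in library composition, were 1.36 to 1.84 in adipose and 0.496 to 0.862 in muscle. Levels are given as CPM, counts scaled to 1000000 per library after that correction. Under library totals alone the median difference over all genes moved to 1.505 on the log2 scale, against 0.14 with the factors (adipose minus muscle in both cases). The direction of a difference can thus depend on this choice, also where it is not small. STAT5B, for 1, had -1.22 with the factors and 0.12 under library totals alone. Counts in no annotated gene made 28.2% to 53.8% of an adipose library's total and 16.1% to 34.1% of a muscle one's, highest for Sample_656 in adipose and Sample_572 in muscle. Pigs Sample_656, Sample_572 and Sample_735, whose libraries stood apart, were left out together as an alternative chosen after seeing the data. The tissue labels were checked with marker genes. The summed level of 7 adipocyte markers was 1650 to 3287 CPM in adipose and 328 to 762 CPM in muscle, and that of 7 muscle fibre markers was 124 to 25766 CPM in adipose and 80685 to 460214 CPM in muscle, with no overlap in either. Muscle fibre markers were thus detected in all adipose libraries, at widely different levels, with the highest in pig Sample_731. In such bulk tissue, fewer cells of a type and less RNA per cell cannot be told apart. Levels are not corrected for gene length and are compared only within a gene.

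The genes differed in where they were more abundant. IGFBP6 was higher in adipose, GRB10 and STAT5A were higher in muscle, and AKT2 did not pass the test. Under library totals alone, IGFBP6 and GRB10 kept these directions, STAT5A turned to higher in adipose, and AKT2 was also higher in adipose. Without pigs Sample_656, Sample_572 and Sample_735 the log2 differences were 1.33 for IGFBP6, -1.92 for GRB10, -0.49 for STAT5A and -0.06 for AKT2, and the calls were as before. Thus 3 of 4 genes passed an adjusted p of 0.05 in edgeR's quasi-likelihood test with Benjamini-Hochberg adjustment, against 85.9% of all genes tested. Of all genes tested, 46.7% passed with more in adipose and 39.2% with more in muscle.

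**Figure D1:**
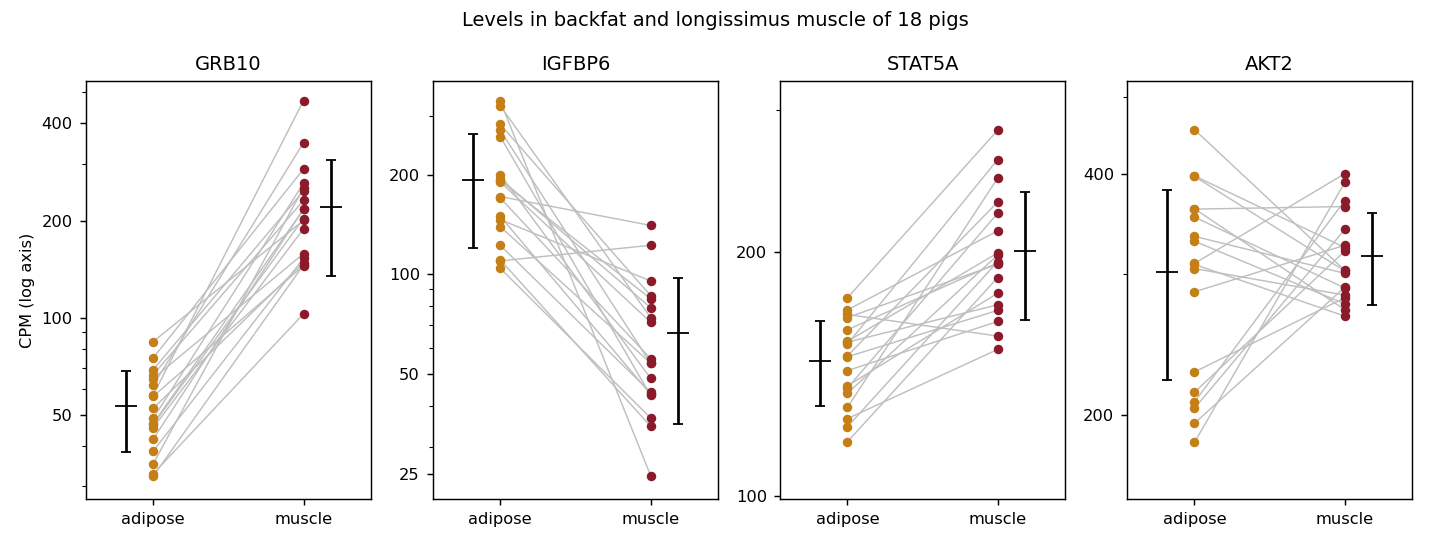
Level of each gene in CPM (log axis) in adipose (left) and muscle (right); points are libraries, grey lines join the libraries of 1 pig, and the black bars give mean ± SD over 18 pigs. GRB10 lies below 85 CPM in all adipose libraries and above 102 CPM in all muscle libraries, while the AKT2 points of adipose fall into a lower set of 6 and a higher set of 12.

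IGFBP6 encodes a secreted binding protein with a preference for IGF2. Its lowest, median and highest levels were 104.2, 180.75 and 333.2 CPM in adipose, against 24.7, 54.7 and 140.4 CPM in muscle. Adipose was the higher tissue in 17 of 18 pigs; in pig Sample_889, adipose had 109.6 CPM and muscle 122.3 CPM. In 13 adipose libraries the level was above that of every muscle library, but the ranges overlapped. The adipose mean was 193 ± 72.8 CPM and the muscle mean 66.2 ± 31.0 CPM (SD, n = 18 each). The log2 difference, adipose minus muscle, was 1.54 (SE 0.196), or 2.91-fold higher in adipose, with an adjusted p of 3.69e-09 by edgeR's quasi-likelihood test. It was 2.90 under library totals alone. The deposited counts behind these levels were 744 to 2513 in adipose and 100 to 563.5 in muscle.

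GRB10 encodes an adaptor that docks on activated insulin and IGF1 receptors and dampens their signal. Its lowest, median and highest levels were 32.2, 50.5 and 84.3 CPM in adipose, against 102.8, 209.8 and 471 CPM in muscle. The ranges did not overlap, and muscle was the higher tissue in all 18 pigs. Over all genes tested, 32.4% had ranges that did not overlap, 17.6% with muscle above, and 53.9% had 1 direction in all 18 pigs. The adipose mean was 53.2 ± 14.9 CPM and the muscle mean 221 ± 86.8 CPM (SD, n = 18 each). The log2 difference was -2.06 (SE 0.158), or 4.16-fold lower in adipose, with an adjusted p of 5.21e-15 by edgeR's quasi-likelihood test. Under library totals alone it was -0.74, with an adjusted p of 0.000225. The highest adipose level was that of pig Sample_731, whose adipose library also held the most muscle fibre RNA, and without pigs Sample_731, Sample_391, Sample_176 and Sample_911, the pigs with much muscle RNA in adipose, the difference was -2.18. Counts were 261 to 574 in adipose and 411 to 1910.5 in muscle.

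STAT5A encodes a transcription factor that JAK2 activates below the growth hormone and prolactin receptors. Its lowest, median and highest levels were 116.6, 148.7 and 175.6 CPM in adipose, against 151.7, 194.4 and 283.1 CPM in muscle. Pig Sample_77 had the highest level in both tissues. Muscle was the higher tissue in 17 of 18 pigs, all but pig Sample_835, and 13 muscle libraries were above every adipose library. The adipose mean was 147 ± 17.7 CPM and the muscle mean 201 ± 36.2 CPM (SD, n = 18 each). The log2 difference was -0.45 (SE 0.0761), or 1.37-fold lower in adipose, with an adjusted p of 1.02e-06 by edgeR's quasi-likelihood test, but it turned to 0.94 under library totals alone. It was -0.48 with median-of-ratios factors and -0.46 in DESeq2, both past an adjusted p of 0.05. STAT5A and STAT5B lie next to each other and overlap in the Sscrofa11.1 gene table and are near-identical paralogs, and no source used here says that strand was kept, so the split of reads between them is uncertain. STAT5B was lower in adipose in all 18 pigs, with an adipose mean of 58.6 ± 7.34 CPM and a muscle mean of 136 ± 38.1 CPM, and its log2 difference was -1.22, or 0.12 under library totals alone.

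AKT2 encodes the AKT kinase most closely tied to insulin-driven glucose uptake in muscle and fat. Its lowest, median and highest levels were 184.75, 308.9 and 454.9 CPM in adipose, against 265.9, 303 and 400.7 CPM in muscle. Adipose was the higher tissue in 9 pigs and muscle in the other 9. The adipose mean was 302 ± 80.9 CPM and the muscle mean 317 ± 41.7 CPM (SD, n = 18 each). The log2 difference was -0.07 (SE 0.104, adjusted p = 0.536 by edgeR's quasi-likelihood test), with a 95% interval of -0.27 to 0.14, and it was 1.29 under library totals alone.

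With the factors, the AKT2 levels of adipose fell into separate sets. In that tissue, 6 libraries (pigs Sample_659, Sample_998, Sample_835, Sample_491, Sample_735 and Sample_911) had 185 to 226 CPM, below every muscle library, and the other 12 had 285 to 455 CPM. At this scaling no adipose library fell between these sets, whereas the muscle levels were spread without such a gap. The width of the gap depends on the factors, and whether the sets also stand apart under library totals alone was not examined. The SD of log2 CPM was 0.404 in adipose and 0.184 in muscle, a ratio of 2.20. In a permutation test that swapped the tissues within pigs, this gave p = 0.00341 and an adjusted p of 0.0995, so it did not pass the correction, and on the log2 scale the ratio was 1.14 with the factors and 0.15 under library totals alone. GRB10, IGFBP6 and STAT5A had ratios of 0.780, 0.814 and 0.704, with adjusted p from 0.407 to 0.67 in the permutation test. None of the 4 genes passed, against 0.882% of the 11109 genes present in both tissues. The highest level was 2.61 times the lowest in adipose and 4.58 times in muscle for GRB10, 3.20 times in adipose and 5.69 times in muscle for IGFBP6, and 1.51 times in adipose and 1.87 times in muscle for STAT5A.

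Pigs with a high level in adipose did not detectably have a high level in muscle. Over 18 pigs, Spearman's rho between the tissues was 0.42 for GRB10 (r = 0.43), 0.18 for STAT5A (r = 0.22), 0.02 for IGFBP6 (r = -0.05) and -0.23 for AKT2 (r = -0.31). Permutation tests gave p from 0.0824 to 0.941, and adjusted over 11109 genes 0.42 to 0.986. No member passed, and 0.576% of all genes did, with a median rho of 0.18. Without the 2 pigs farthest from the adipose median, r was 0.44 for GRB10, 0.22 for STAT5A, 0.16 for IGFBP6 and -0.25 for AKT2. Pig Sample_735 shows how the tissues could part, with the highest IGFBP6 level of all adipose libraries and the lowest of all muscle libraries.

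The 4 genes sit in a pathway whose groups split differently between the tissues, and most of these splits changed with the scaling. Of 99 genes listed by role, 79 were matched by symbol and 70 were tested. Adipose held the higher level for 25 of these, muscle for 34, and 11 did not pass, with a median log2 difference of -0.24 against 0.14 over all genes tested. Under library totals alone adipose held the higher level for 55 and muscle for 10, with a median of 1.14 against 1.505 over all genes. Over all 12542 genes tested, 46.7% were higher in adipose and 39.2% in muscle with the factors. Library totals alone called 10148 of them higher in adipose and 1520 in muscle. The counts of each group below are to be read beside these.

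Among the IGF binding proteins and their regulators, the group that holds IGFBP6, 7 of 8 tested genes were higher in adipose under both scalings. Over all genes tested, 46.7% were higher in adipose with the factors, but 10148 of 12542 under library totals alone, so the second count is near the background. The group's median log2 difference was 1.47 with the factors, against 0.14 over all genes. Under library totals alone it was 2.85, against 1.505. IGFBP4, another inhibitory binding protein, averaged 188 ± 51.6 CPM in adipose and 40.5 ± 12.3 CPM in muscle, a difference of 2.22. IGFALS, which stabilises circulating IGF complexes, differed by 2.03, IGFBP5 by 1.39 and IGFBP7 by 0.46. The exception was STC2, an inhibitor of the proteases that cut IGF binding proteins, named after its value was seen, with a difference of -2.01. IGF1, the only ligand matched, averaged 12.4 ± 6.04 CPM in adipose and 7.23 ± 2.98 CPM in muscle, 1.72-fold higher in adipose. Of the 3 receptors tested, IGF2R was lower in adipose (-0.82, but 0.51 under library totals alone), while GHR had a difference of 0.12 and INSR of -0.21, neither past the test. The row that carries the symbol IGF1R averaged 0.0768 CPM in adipose, against 0.0537 CPM in muscle, and was too low to test.

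Around GRB10, the receptor adaptors split evenly: adipose was the higher tissue for 3 and muscle for 3, and 2 did not pass the test. Library totals alone put 5 higher in adipose and 2 in muscle. IRS1, the docking protein that carries the insulin signal GRB10 opposes, had 14.3 to 27.8 CPM in adipose and 33.0 to 317 CPM in muscle. Its ranges did not overlap, and the difference was -2.87, or -1.49 under library totals alone. SHC1, an adaptor to the RAS branch, went the other way, with 50.6 to 78.9 CPM in adipose and 19.8 to 34.4 CPM in muscle and a difference of 1.22. GRB2, which links SHC1 to RAS activation, differed by -0.01 and did not pass the test.

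Around STAT5A, the 12 tested genes of the JAK-STAT branch and its inhibitors divided into 6 with more in adipose and 6 with more in muscle, though library totals alone put 11 higher in adipose and 0 in muscle. STAT3 was higher in adipose by 0.36. The phosphatase PTPN11 was lower in adipose with the factors, at -0.91, and turned to 0.48 under library totals alone.

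Around AKT2, the PI3K-AKT core had 4 genes with more in adipose, 4 with more in muscle and 4 not past the test, but library totals alone put all 12 higher in adipose. The lipid phosphatase INPPL1 differed by -1.10 and the catalytic subunit PIK3CA by -0.97, and both turned positive under library totals alone, at 0.27 and 0.41. With the factors, the AKT targets and mTOR genes leaned to muscle: adipose was the higher tissue for 4 and muscle for 14 of 20, with a median of -0.67. Library totals alone put 13 higher in adipose and 4 in muscle. GYS1, the glycogen synthase of muscle, averaged 124 ± 21.3 CPM in adipose and 790 ± 362 CPM in muscle, 6.38-fold lower in adipose. EIF4EBP1, the brake on translation that mTOR releases, averaged 69.6 ± 12.3 CPM in adipose and 394 ± 207 CPM in muscle, 5.65-fold lower in adipose. Both kept their direction under library totals alone, at -1.27 and -1.21. In the RAS-MAPK branch, 5 of 6 genes were lower in adipose, among them MAP2K1 (-2.47) and MAP2K2 (-1.73), kinases of that cascade, and 3 were under library totals alone. The row that carries the symbol SLC2A4, the insulin-responsive glucose transporter, averaged 0.0643 CPM in adipose, against 0.601 CPM in muscle, and was too low to test.

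**Figure D2:**
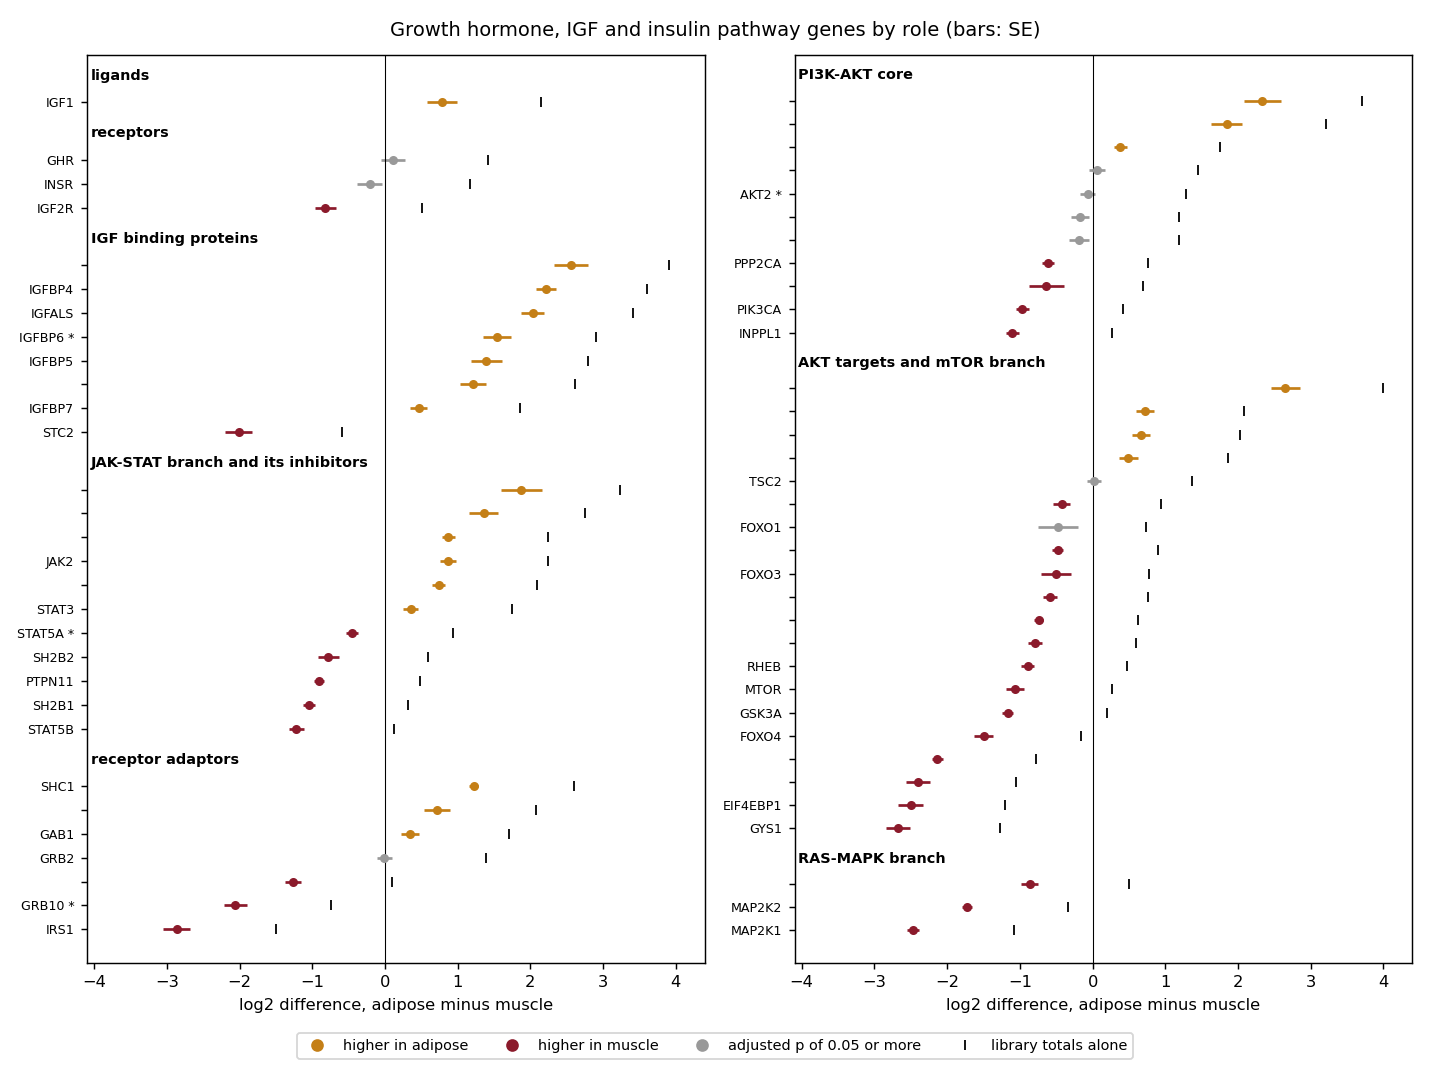
Log2 difference (adipose minus muscle) of 64 of the 70 tested pathway genes, by role, with the genes named in the text labelled and 6 genes not plotted; circles are the fit with trimmed-mean factors, with bars for the SE, vertical ticks are library totals alone, and asterisks mark the 4 genes described. Most of the binding protein group lies right of 0 under both scalings. The ticks lie to the right of the circles in all groups, the binding proteins among them.

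Within a tissue, the 4 genes form 6 pairs, tested in each tissue against the background of all genes there. In adipose no pair passed the permutation test after adjustment over all partner genes, with rho from -0.41 (AKT2 with IGFBP6) to 0.34 (IGFBP6 with STAT5A) and adjusted p from 0.511 to 0.956. In muscle, GRB10 and IGFBP6 were inversely related, with rho = -0.66 (p = 0.00354, adjusted p = 0.0473) and r = -0.76 (adjusted p = 0.0092) in permutation tests over 18 libraries. Pig Sample_735 had the highest GRB10 and the lowest IGFBP6, and pig Sample_491 the lowest GRB10 and the highest IGFBP6. Without these 2 pigs, which lie farthest from the median of GRB10, r was -0.55. The call was close to its threshold: leaving out 1 pig gave rho from -0.77 to -0.60, and the call was lost for 10 of 18 pigs (Sample_77, Sample_176, Sample_186, Sample_391, Sample_491, Sample_572, Sample_656, Sample_735, Sample_889 and Sample_991), with adjusted p up to 0.125. It was also lost under library totals alone (rho = -0.46, adjusted p = 0.29) and without pigs Sample_656, Sample_572 and Sample_735 together (rho = -0.43, adjusted p = 0.488). In adipose the same pair had rho = -0.28 (adjusted p = 0.511), and the difference between the tissues was not tested. The other 5 muscle pairs had rho from -0.41 to 0.34 and adjusted p from 0.309 to 1.0 in the permutation test. With the level of ACTA1, the skeletal muscle actin, removed by regression, GRB10 and STAT5A in muscle had rho = 0.71 (adjusted p = 0.0299) and IGFBP6 and STAT5A had rho = -0.67 (adjusted p = 0.0491).

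**Figure D3:**
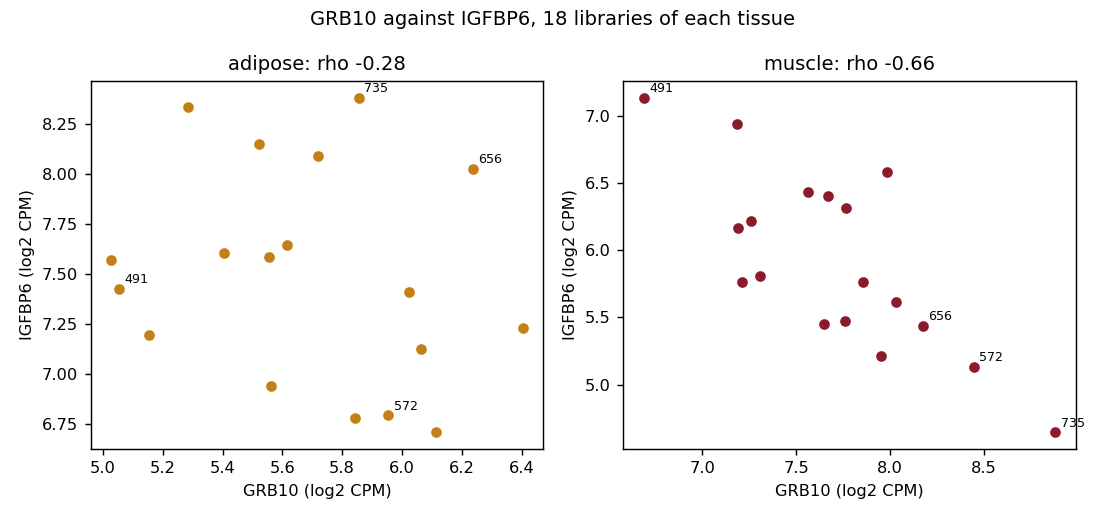
IGFBP6 against GRB10 in log2 CPM, in 18 adipose libraries (left) and 18 muscle libraries (right), with pigs Sample_491, Sample_572, Sample_656 and Sample_735 numbered. The muscle points fall from pig Sample_491 at the upper left to pig Sample_735 at the lower right (rho = -0.66), while the adipose points show no such line (rho = -0.28).

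GRB10 in muscle varied with many genes. Of 11702 partner genes, 548 were positively and 370 negatively related after adjustment in the permutation test, or 7.84%. The count was 387 without pig Sample_735, 426 without pig Sample_572, 436 without pig Sample_889, 571 without pig Sample_491 and 596 without pig Sample_656, and 1188 at most, and it was 20 without pigs Sample_656, Sample_572 and Sample_735 together. The level of GRB10 followed the first principal component of the muscle libraries, which held 21.1% of the variance, at a rho of 0.94 in size, and with that component removed 0 genes were called. Among pathway genes, 11 of 66 were positively and 2 negatively related to GRB10, or 19.7%, with a median rho of 0.17 against 0.02 over all partner genes. The 13 were taken because they passed and so were named after their values were seen.

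The closest was EIF4EBP1, whose lowest, median and highest muscle levels were 173, 350 and 924 CPM (rho = 0.89). MTOR, the kinase that EIF4EBP1 answers to, had 51.4, 113.5 and 247 CPM (rho = 0.87). EIF4EBP1 was highest in pig Sample_572 and MTOR in pig Sample_735, the pigs that also had the highest GRB10 levels. FOXO4, a transcription factor that AKT keeps out of the nucleus, and GSK3A, a kinase that AKT inhibits, both had rho = 0.86. SH2B1, which enhances JAK2 signalling, had 0.82, STAT5B 0.80 and the growth hormone receptor GHR 0.75. TSC2 (0.76), IGF2R (0.73), GAB1 (0.70) and FOXO1 (0.67) completed the positive set. Besides IGFBP6, the negative one was GYS1 (-0.70). Adjusted p for the 13 ran from 0.00404 to 0.0473 in the permutation test of rho, and in that of Pearson's r from 0.00289 to 0.0449. Apart from IGFBP6, the 13 were not followed singly under library totals alone or with pigs left out. Library totals alone called 95 genes of the whole tissue with GRB10, and 20 were called without pigs Sample_656, Sample_572 and Sample_735 together.

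Over all genes with a symbol, those most like GRB10 in muscle were NR1H3, OCRL and SSRP1. NR1H3, the nuclear receptor LXR-alpha that senses oxysterols and drives lipogenic genes, had 21.6, 42.8 and 146 CPM and rho = 0.95. OCRL, an inositol polyphosphate phosphatase, had rho = 0.92, and SSRP1, a histone chaperone subunit, had 0.91. The most opposed were TCF19, a nuclear protein tied to cell proliferation, at -0.92 and AURKB, a kinase of mitosis, at -0.91. The r of these 5 was 0.82 to 0.89 in size, and 0.83 to 0.86 without pigs Sample_491 and Sample_735. TCF19 and AURKB were scarce, at 0.683 to 13.8 CPM and 0.683 to 9.21 CPM. All 5 had an adjusted p of 0.00404 and kept the call in the permutation test whichever pig was left out. With no factors beyond library totals, NR1H3, OCRL and TCF19 kept it, but SSRP1 had rho = 0.60 (adjusted p = 0.149) and AURKB -0.73 (adjusted p = 0.0662) in the permutation test. Without pigs Sample_656, Sample_572 and Sample_735 together SSRP1 alone of the 5 lost it (rho = 0.85, adjusted p = 0.0585 by permutation test). Beside this, GRB10 in muscle had a rho of -0.62 with the mean of 3 lymphocyte markers, -0.45 with 5 macrophage markers and -0.50 with 1 erythroid marker. The summed lymphocyte markers ranged from 6.49 to 51.5 CPM over the muscle libraries, and their part in these relations was not tested.

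**Figure D4:**
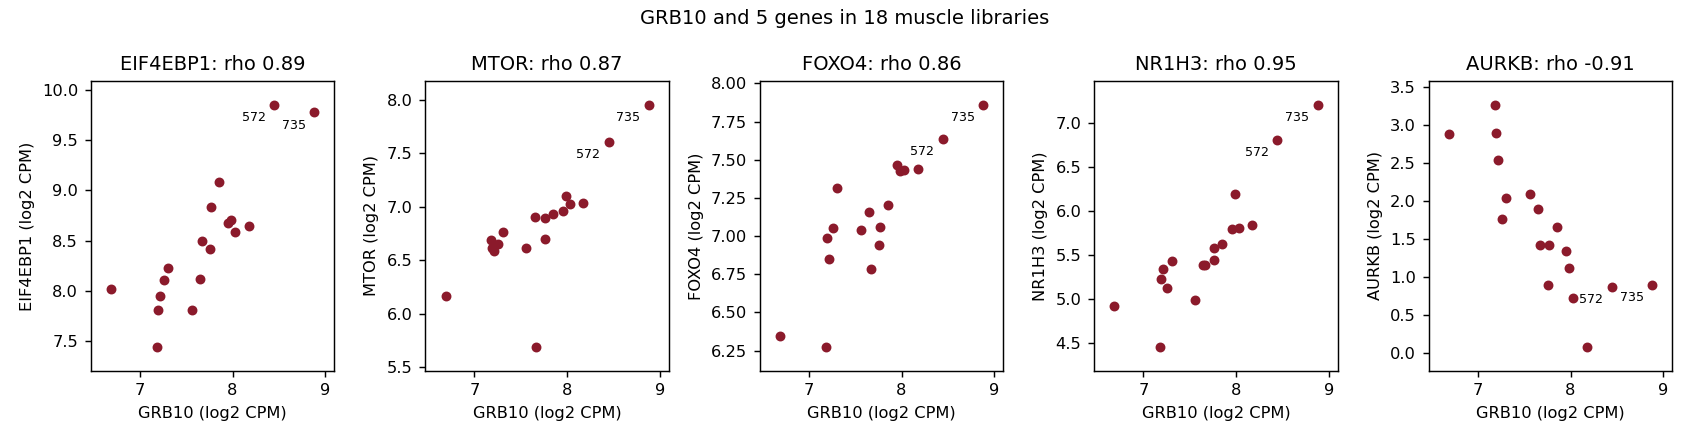
Level of 5 genes against GRB10 in 18 muscle libraries (log2 CPM on both axes), with pigs Sample_572 and Sample_735 numbered. EIF4EBP1, MTOR, FOXO4 and NR1H3 rise with GRB10 (rho 0.86 to 0.95) and AURKB falls with it (rho -0.91), and pigs Sample_572 and Sample_735 lie at the far right of each panel.

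In adipose, GRB10 was related to 131 of 12601 genes, or 1.04%, of which 73 positively and 58 negatively. This count rested on few pigs: it ran from 6 (without pig Sample_835) to 429 (without pig Sample_889), moved by more than 1.5 times for 14 of 18 pigs, and was 0 with the ACTA1 level removed and 0 without pigs Sample_656, Sample_572 and Sample_735 together. The closest genes were LPIN1 at rho = 0.86, SGSM1 at 0.86 and DUSP10, a phosphatase of MAP kinases, at 0.85. LPIN1 makes diacylglycerol for triglyceride synthesis and had 83.0, 164 and 344 CPM as its lowest, median and highest adipose levels, the highest in pig Sample_731 as for GRB10. LOXL1, an enzyme that crosslinks elastin, was the most opposed at -0.89, followed by the peroxidase PRDX1 at -0.85. Without the 2 pigs farthest from the GRB10 median, Sample_731 and Sample_991, the r of these 5 was 0.74 to 0.87 in size. Their adjusted p ran from 0.021 to 0.027 in the permutation test; only LOXL1 of the 5 kept the call whichever pig was left out. LPIN1 lost it without pig Sample_656 or Sample_835, SGSM1 without Sample_835 or Sample_991, and DUSP10 and PRDX1 each without Sample_491, Sample_656, Sample_835 or Sample_991. With library totals alone, DUSP10 (rho = 0.74, adjusted p = 0.0756) and PRDX1 (rho = -0.80, adjusted p = 0.054) lost it in the permutation test. Without pigs Sample_656, Sample_572 and Sample_735 together none of the 5 passed, with adjusted p from 0.063 to 0.132. FOXO4 was the 1 of 70 pathway genes called (rho = 0.83, adjusted p = 0.0276 by permutation test), and it was called in muscle too. GRB10 in adipose had a rho of 0.71 with the mean of 5 endothelial markers and -0.62 with 4 lymphocyte markers, whose summed levels ranged from 441 to 1023 CPM and from 28.8 to 173 CPM. The part of these markers was not tested.

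IGFBP6 in muscle was related to 368 of 11702 genes, or 3.14%, of which 160 positively and 208 negatively by the permutation test. The count was 38 without pig Sample_735, 107 without pig Sample_491, 111 without pig Sample_889, 141 without pig Sample_656, 148 without pig Sample_572, 239 without pig Sample_835 and 694 without pig Sample_998; without pig Sample_176 it was 1.504% of the partner genes, and without pigs Sample_656, Sample_572 and Sample_735 together it was 0. The genes most like it were KAZALD1, a secreted protein with an IGF-binding-protein-like domain (rho = 0.91), S100A6, a calcium-binding protein (0.89), and KDELR3, a receptor that returns proteins to the endoplasmic reticulum (0.87). All 3 were lowest in pig Sample_735, at 3.70, 4.44 and 3.70 CPM. KAZALD1 was highest, at 14.4 CPM, in pig Sample_491, and S100A6 and KDELR3, at 46.3 and 25.9 CPM, in pig Sample_889. ATG16L1, a protein of autophagosome formation, was the most opposed at -0.90, and the ubiquitin ligase RNF216 was at -0.89. The r of these 5 was 0.78 to 0.91 in size, and 0.74 to 0.88 without pigs Sample_491 and Sample_889. Their adjusted p was 0.0106 or 0.0123 in the permutation test of rho and stayed under 0.05 whichever pig was left out. With library totals alone, KAZALD1, S100A6 and KDELR3 kept the call, while ATG16L1 moved to rho = -0.15 (adjusted p = 0.786) and RNF216 to -0.45 (adjusted p = 0.327) in the permutation test. Without pigs Sample_656, Sample_572 and Sample_735 together none of the 5 passed, with rho from 0.82 to 0.89 in size and adjusted p of 0.13 or 0.181.

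Pathway genes related to IGFBP6 in muscle were all negative, at 6 of 66 or 9.09%, with a median rho of -0.14 against -0.04 over all partner genes. They were named because they passed: FOXO3 (-0.82), SH2B2 (-0.79), GSK3A (-0.78), SH2B1 (-0.75), FOXO4 (-0.72) and TSC2 (-0.71), with adjusted p from 0.0167 to 0.0494 in the permutation test. These were not followed singly under library totals alone, where 146 genes of the whole tissue were called with IGFBP6. Without pigs Sample_656, Sample_572 and Sample_735 together 0 genes were called. GSK3A, SH2B1, FOXO4 and TSC2 were also among the genes positively related to GRB10 in the same libraries. Both members followed the first principal component of the muscle libraries, at a rho of 0.69 in size for IGFBP6 and 0.94 for GRB10. With that component removed, 0 genes were called with either. IGFBP6 in muscle had a rho of 0.63 with the mean of 8 fibroblast and progenitor markers, 0.25 to 0.72 for single markers and highest for the matrix protein DCN. Their summed level ranged from 1421 CPM in pig Sample_735 to 8899 CPM in pig Sample_889, the same pigs that held the lowest level of IGFBP6 and the second highest. Its rho with 5 macrophage markers was 0.53. The part of these cells was not tested.

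AKT2 in adipose was related to 82 of 12601 genes, or 0.651%, with 77 positive and 5 negative by the permutation test. The genes most like it were AGPAT1, which adds an acyl chain on the way to triglyceride (rho = 0.91), RETSAT, a retinol saturase active in adipocytes (0.91), and ELMOD3 (0.91), each with an adjusted p of 0.009 by rho and 0.00788 by r. Without the 2 pigs farthest from the AKT2 median, Sample_659 and Sample_998, r was 0.90, 0.90 and 0.89 for these genes. RETSAT and ELMOD3 are neighbours that overlap in the Sscrofa11.1 gene table, so they may share reads and the split between them is uncertain. Lowest, median and highest adipose levels were 83.3, 139 and 248 CPM for AGPAT1 and 110, 235 and 499 CPM for RETSAT. RRS1, a ribosome assembly factor, and PDE12, a mitochondrial RNase, were the most opposed, both at rho = -0.81 (adjusted p = 0.0321), and the call was not firm for either. Leaving out 1 pig ended it for RRS1 with any of 9 pigs (Sample_77, Sample_231, Sample_242, Sample_491, Sample_659, Sample_735, Sample_835, Sample_911 and Sample_998) and for PDE12 with any of 6 (Sample_231, Sample_242, Sample_491, Sample_735, Sample_835 and Sample_889). Under library totals alone rho was -0.69 for RRS1 (adjusted p = 0.223) and -0.57 for PDE12 (adjusted p = 0.415), while AGPAT1, RETSAT and ELMOD3 kept the call in the permutation test. Without pigs Sample_656, Sample_572 and Sample_735 together RETSAT and ELMOD3 kept it, and AGPAT1 (adjusted p = 0.054), RRS1 (0.164) and PDE12 (0.134) did not. Because AKT2 fell into separate sets, the relation was also taken within each: over the 12 libraries with more AKT2, rho was 0.74 for AGPAT1, 0.78 for RETSAT and 0.85 for ELMOD3, and over the 6 with less it was 0.60, 0.26 and -0.37. The sets were cut on the AKT2 levels themselves, and no test was run within them. With 6 libraries over a narrow range of AKT2, the smaller set cannot show whether the relation holds there. The number of genes called fell to 23 without pig Sample_735 and to between 33 and 40 without pig Sample_176, Sample_231, Sample_242, Sample_491, Sample_659, Sample_835, Sample_889 or Sample_998, and to 7 without pigs Sample_656, Sample_572 and Sample_735 together.

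Adipocyte markers moved with AKT2 in adipose. The mean of 7 markers had a rho of 0.84 with it over 18 libraries, 0.57 within the set of 12 and 0.09 within the set of 6. Pearson's r was 0.54 within the set of 12 and 0.53 within the set of 6. For single markers rho over 18 libraries ran from -0.27 for the secreted protease CFD to 0.90 for LIPE, the hormone-sensitive lipase. LIPE, the only marker also taken singly within the sets, had 0.76 in the set of 12 and 0.83 in the set of 6. It was also the marker with the highest rho over the 18 libraries, so it does not stand for the list. The other markers were not taken singly within the sets, which were cut on AKT2 itself. The summed level of the 7 markers was lowest in pig Sample_659, as was AKT2. AKT2 also had a rho of -0.59 with the trimmed-mean factor of the adipose libraries. The part of adipocyte content and of the scaling was not tested. IGFBP6 in adipose had a rho of -0.55 with the same 7 markers, and STAT5A had -0.10.

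**Figure D5:**
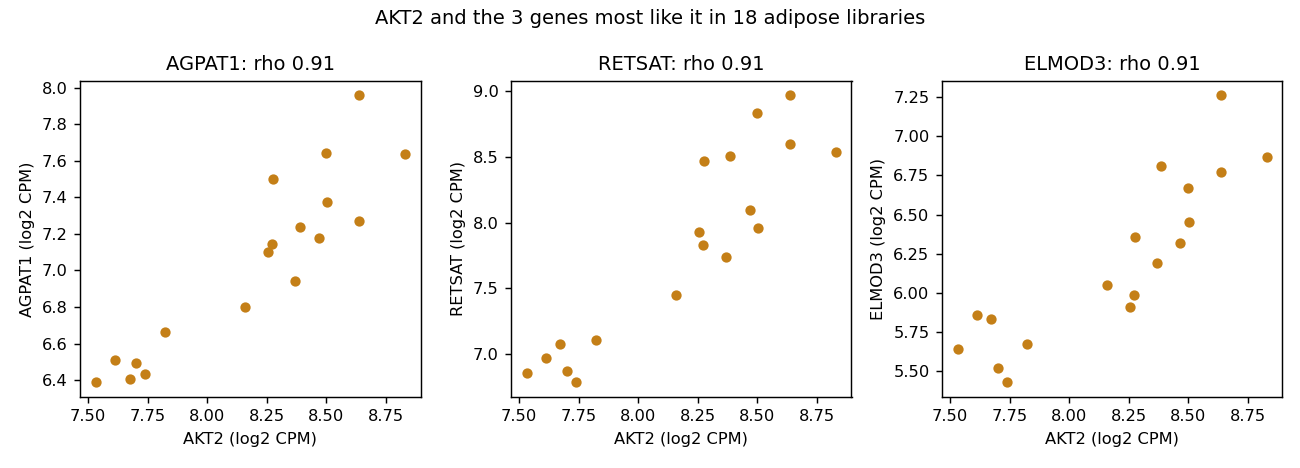
AGPAT1, RETSAT and ELMOD3 against AKT2 in 18 adipose libraries (log2 CPM on both axes). Each gene has rho = 0.91, and in each panel 6 libraries with low AKT2 stand apart at the left.

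For the remaining combinations no partner gene passed the permutation test after adjustment by rho, and none by Pearson's r. This depended on the processing for some: library totals alone called 3682 genes with AKT2 and 5 with STAT5A in muscle, and removing the first principal component called 13 with IGFBP6 in adipose. At an unadjusted p under 0.05 there were 944 genes for IGFBP6 and 963 for STAT5A among 12601 partner genes in adipose. Among 11702 in muscle there were 1125 for STAT5A and 843 for AKT2. With no relation at all, a share of 0.05 of the partner genes would fall there on average. The highest rho was 0.88 for IGFBP6 in adipose with CCDC3, a secreted protein of adipose and endothelium (adjusted p = 0.126). It was 0.84 for STAT5A in adipose with HIF3A, a subunit of hypoxia-inducible factor (adjusted p = 0.202), 0.84 for STAT5A in muscle with ADAM22 (adjusted p = 0.205) and 0.85 for AKT2 in muscle with MYBBP1A, a nucleolar protein (adjusted p = 0.234). The ciliary transport gene IFT81 was among the lowest for AKT2 in muscle, at -0.80. STAT5A in muscle had a rho of 0.56 with the mean of 7 muscle fibre markers, -0.51 with 3 lymphocyte markers and 0.53 with 3 keratinocyte markers. For single markers rho was 0.09 to 0.62 (fibre) and -0.58 to -0.21 (lymphocyte). The keratinocyte markers did not move together, with rho from -0.21 for KRT10 to 0.67 for DSP. No pathway gene was called with STAT5A in muscle.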

How the data were processed

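The authors deposited expected counts per Ensembl gene, not normalised, for 36 libraries. Per the submitters' processing notes the tools were GSNAP and HTSeq; no version, and neither the build nor the annotation, is given in the sources used here. Per the labels' protocols, libraries were made from total RNA with a TruSeq kit and read as pairs, with no mention of strand. Of the deposited expected counts, 35.1% were not whole (steps of 0.5), and all were rounded to whole numbers for the tests. Another 5 lines name no gene and stayed out; counts in no gene averaged 34.5% ± 5.60 over adipose and 19.9% ± 4.01 over muscle libraries (SD, n = 18 each). Symbols matched 11804 of 25322 gene IDs. No sequences were used here.

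Tissues were compared with edgeR 4.0.16 (quasi-likelihood test, robust fit, trimmed-mean factors, low counts removed with the default of filterByExpr) under R 4.3.3, with Benjamini-Hochberg adjustment over 12542 genes. This fit held tissue alone, so its p-values, SE and intervals leave out the pairing of libraries by pig. The pig number as a block was run as an alternative. Correlations used log2 CPM (prior count 2) of genes at 1 CPM or more in at least 15 of 18 libraries, with 100000 two-sided permutations (smallest p 1e-05), and adjustment over all partner genes of a member. Alternatives were DESeq2 1.42.0, other scalings and filters, Pearson's r, regression on ACTA1, library total or the first principal component, and leaving out pigs. The tests across genes were checked on simulated data with known changes. For correlations and spread these were strong changes in genes simulated independently. That check does not cover weaker relations or genes that vary together. No batch is given in the labels.

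The members and gene lists were chosen with earlier results of these data known. By rule, the genes named are the 4 members, up to 5 genes of each pathway list by mean CPM, and, for each member and tissue, the 3 genes with a symbol with the highest and the 2 with the lowest rho. Also named, after their values were seen or because their level was too low to test, are pathway genes called with a member, STC2, IGF1R and SLC2A4, and a few genes of the marker lists. Some genes that this rule names are not reported here. Libraries with 1 number come from 1 animal per the labels, which pairs the samples. In a check, a pig's deviations from the tissue means correlated at 0.231 on average (0.0996 to 0.368) between its own tissues and at -0.0137 with other pigs' tissues, where the highest was 0.483; the own tissue was the best match for 10 of 18 pigs.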

Additional observations from a re-analysis of the deposited data

How the results depend on the processing

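The tissue differences of GRB10 and IGFBP6 kept their direction and call under every alternative run. Library totals alone turned AKT2 to 1.29 and STAT5A to 0.94, and of the pathway genes FOXO1 to 0.74, GRB2 to 1.38, IGF2R to 0.51, INPPL1 to 0.27, INSR to 1.16, PIK3CA to 0.41, PPP2CA to 0.77, PTPN11 to 0.48, RHEB to 0.47 and STAT5B to 0.12. It called adipose higher for 10148 genes and muscle for 1520, against 5853 and 4919, and 55 and 10 pathway genes against 25 and 34; with no filter, which tests more genes, 9077 were higher in adipose. The pig number as a replicate block gave -2.02 for GRB10, 1.58 for IGFBP6, -0.44 for STAT5A and -0.11 for AKT2, and the pairing changed no call of a named gene.

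Pigs Sample_656, Sample_572 and Sample_735 were left out together after seeing the data, since their libraries stood apart in depth, counts outside genes or scaling. This turned FOXO1 to 0.052 and the spread of GRB10 to 0.10 (log2 ratio), gave rho = -0.43 for GRB10 with IGFBP6 in muscle and 0.036 for AKT2 with IGFBP6 in muscle, and left 7 genes with AKT2 and 0 with GRB10 in adipose, and 20 with GRB10 and 0 with IGFBP6 in muscle. Without pigs Sample_731, Sample_391, Sample_176 and Sample_911, GHR turned to -0.022 and GRB2 to 0.026, and with no filter GRB2 turned to 0.018.

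Pearson's r was -0.049 between tissues for IGFBP6, 0.053 for AKT2 with STAT5A in adipose and 0.10 for AKT2 with IGFBP6 in muscle, and it called 278 genes with GRB10 in adipose, 1405 with GRB10 and 900 with IGFBP6 in muscle. Between tissues it called 208 genes, against 64 by rho; the count was 394 under library totals alone and 7 to 134 under the other alternatives that moved it by over 1.5 times. Genes with unequal spread were 98, 183 under library totals alone and 0 without pigs Sample_656, Sample_572 and Sample_735. Library totals alone gave rho of 0.31 for AKT2 with IGFBP6, 0.29 with STAT5A, 0.090 with GRB10 and 0.17 with IFT81 in muscle, and -0.46 for GRB10 with IGFBP6; it called 16 genes with AKT2 and 31 with GRB10 in adipose, and 3682 with AKT2, 95 with GRB10, 146 with IGFBP6 and 5 with STAT5A in muscle. With the first principal component removed, GRB10 with IGFBP6 in muscle had -0.21, AKT2 with STAT5A in adipose 0.032 and AKT2 with IGFBP6 in muscle 0.038, and the calls were 22 with AKT2, 0 with GRB10 and 13 with IGFBP6 in adipose, and 0 with GRB10 and 0 with IGFBP6 in muscle. With ACTA1 removed, AKT2 with STAT5A in adipose had 0.022, GRB10 with STAT5A in muscle 0.71 and IGFBP6 with STAT5A in muscle -0.67, with 43 calls for AKT2 and 0 for GRB10 in adipose and 845 for IGFBP6 in muscle. With the library total removed, IGFBP6 with STAT5A in muscle had -0.75 and AKT2 with IGFBP6 0.067, with 250 calls for GRB10 in adipose, 1513 for GRB10 and 897 for IGFBP6 in muscle. The cause was not tested.

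Leaving out 1 pig gave -0.059 to 0.028 for GRB2, -0.12 to 0.21 between tissues for IGFBP6, -0.27 to 0.017 for AKT2 with STAT5A in adipose, -0.15 to 0.10 for AKT2 with IGFBP6 and -0.77 to -0.60 for GRB10 with IGFBP6 in muscle. Calls ranged over 23 to 94 (AKT2), 6 to 429 (GRB10), 0 to 3 (IGFBP6) and 0 to 6 (STAT5A) in adipose, 387 to 1188 (GRB10) and 38 to 694 (IGFBP6) in muscle, 27 to 93 between tissues and 3 to 110 for spread. Depth limits TCF19 and AURKB, at a few CPM in muscle.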
